A study of Mus musculus with 6 samples.

Results

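The 10 genes described here encode proteins of the cytotoxic granule and receptors first known from natural killer (NK) cells. They are Gzma, Gzmb, Gzmk, Prf1, Nkg7, Klrd1, Klrk1, Klrb1c, Klrg1 and Ncr1. The rule takes them by name with no threshold on a measured value, although earlier results of these data were known when they were picked, and they are 10 of the 23282 gene lines in each library.

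CD4 T cells from mice lacking the AMPK catalytic subunit α1 (gene Prkaa1) in T cells were compared with wild-type cells by 3′ RNA sequencing, with 3 samples in each group and 6 in all. The AMPK KO samples came from Prkaa1 fl/fl mice carrying CD4Cre, and the WT samples from Prkaa1 fl/fl mice without the Cre, so both groups carried the floxed alleles on a C57BL/6 background. CD4Cre is active in thymocytes from the stage at which both CD4 and CD8 are made, and therefore deletes in CD8 as well as CD4 lineage cells. The cells were purified from spleen and lymph nodes with magnetic beads, the route stated for cells used in vitro, and stimulated with antibodies to CD3 and CD28. The sample labels give 24 h of stimulation whereas the written methods give 6 h, and the values here cannot be assigned to either time. The methods describe female mice aged 6 to 8 weeks unless stated otherwise. The study describes its RNA-seq samples as biologically independent, while the labels do not say whether those of a group came from separate animals. Where they did not, p-values measure only the spread between samples.

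Killer lymphocytes store perforin and granzymes in secretory granules and release them at the contact with a target cell. Perforin opens the target's membrane, the granzymes are serine proteases that enter and cleave proteins inside it, and the matrix proteoglycan serglycin holds the proteases in the granule. NK receptors set whether the granules are released. Activating receptors such as NKG2D and NKp46 signal through adaptors with tyrosine motifs, whereas the CD94/NKG2A pair and KLRG1 inhibit, and T cells that have been strongly or repeatedly stimulated can express several of these receptors, CD8 T cells more than conventional CD4 T cells.

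The AMPK KO libraries were deeper than the WT libraries. Reads on genes came to 9575307 to 10168079 in WT and 10515306 to 11185507 in AMPK KO, as recovered from the rounded log2 values, which leaves totals and large counts approximate. The ribosomal precursor Rn45s took 20.7 to 24.9% of them in WT and 8.48 to 10.8% in AMPK KO, which left 7194439 to 8064254 and 9623848 to 10025288 reads on other genes. Values are log2 of normalized CPM plus 1, the CPM being reads scaled to library size. Each transcript gives about 1 tag at its 3′ end, so that levels do not scale with gene length. The targeted gene Prkaa1 had values of 4.64, 5.24 and 4.86 in WT and 4.08, 4.72 and 4.67 in AMPK KO, a difference of −0.43 (adjusted p = 0.357) with overlapping groups. Where the 3′ tags of Prkaa1 lie outside the floxed part they say nothing of its deletion.

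The purified cells were checked against markers of the cells that use these genes. Cd4 lay between 6.14 and 6.83, and Cd8b1, which encodes the CD8 β chain of cytotoxic T cells, was above Cd4 in 6 of 6 libraries, at 7.17 to 7.98. Cd8a, the α chain, was above Cd4 in 4 of 6, 1 of the 3 WT and 3 of the 3 AMPK KO libraries. Csf1r, a receptor of macrophages and monocytes, was also above Cd4 in 6 of 6 libraries, at 7.21 to 9.01. Transcripts that mark cells other than CD4 T cells were thus counted in every library, while the stated purity was over 90%. Xist, transcribed from the inactive X chromosome of females, gave between 8 and 32 reads per WT library but 1998 to 2876 per AMPK KO library, and the Y-linked Ddx3y with 3159 to 3462 and 1296 to 1840. These values go against female mice for the WT libraries, and each AMPK KO library held both transcripts, so that whether a sample pooled animals is not known. Genotype and the sex of the animals cannot be told apart in these samples.

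Promoter sequence is shown for the members whose WT and AMPK KO values did not overlap and that had an entry, namely Klrk1, Gzmb and Prf1. The windows are the 250 bases before the RefSeq transcription start on GRCm38.p6, at chr6:129623865-129624114 for Klrk1 and chr14:56262335-56262584 for Gzmb, both on the minus strand, and at chr10:61297586-61297835 on the plus strand for Prf1. Each reads 5′ to 3′ on the gene's own strand, with capitals marking the RUNX motif TGTGGT on either strand (ACCACA on the opposite one) and, in Gzmb, the AP-1 motif TGAGTCA.
Klrk1: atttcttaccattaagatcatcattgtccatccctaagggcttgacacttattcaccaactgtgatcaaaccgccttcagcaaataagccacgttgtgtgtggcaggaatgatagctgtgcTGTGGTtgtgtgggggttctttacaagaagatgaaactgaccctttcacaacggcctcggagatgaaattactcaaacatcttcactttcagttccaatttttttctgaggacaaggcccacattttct
Gzmb: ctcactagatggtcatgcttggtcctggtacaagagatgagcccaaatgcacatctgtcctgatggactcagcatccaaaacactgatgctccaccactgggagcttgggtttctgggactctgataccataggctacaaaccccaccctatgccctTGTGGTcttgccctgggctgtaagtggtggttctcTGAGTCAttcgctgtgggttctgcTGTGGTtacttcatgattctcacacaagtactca
Prf1: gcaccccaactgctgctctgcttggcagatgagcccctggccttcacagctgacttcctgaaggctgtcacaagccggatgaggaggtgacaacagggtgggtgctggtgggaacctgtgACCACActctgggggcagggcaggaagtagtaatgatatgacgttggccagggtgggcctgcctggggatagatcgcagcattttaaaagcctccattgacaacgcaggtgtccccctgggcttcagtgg
RUNX factors, among them Runx3, act at genes of the cytotoxic programme, and AP-1 is induced by T cell receptor signalling. Of the 10 members 8 had an entry, and TGTGGT was present on 1 strand or the other in 7 of the 8 (Gzma, Gzmb, Prf1, Nkg7, Klrk1, Klrb1c and Ncr1), against 14.0% of the 32851 promoter windows of the same length. The AP-1 motif TGANTCA was present in Gzmb alone of the 8, against 6.75% of all windows. The T-box motif TCACACC was found in Gzmk and Nkg7, against 3.33%, and the STAT motif TTCNNNGAA in Nkg7, against 7.02%. The motifs do not overlap in the printed windows, and a match describes the letters only. For Gzmb, Prf1 and Gzmk the bases after the RefSeq start were not found in a GENCODE M21 transcript of the gene. The placing of these windows is therefore uncertain.

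Klrk1, which encodes the activating receptor NKG2D, was higher in AMPK KO and was the 1 member past the threshold. Across the 8 members that passed a filter on low values (mean log2 value of 1 or more), limma with Benjamini-Hochberg adjustment over all 11279 genes tested called 1 higher and 0 lower at an adjusted p of 0.05. In the same fit 5.65% of all genes were called, 2.54% as higher and 3.1% as lower in AMPK KO. Before adjustment 4 of the 8 members (Klrk1, Klrg1, Prf1 and Gzmb) had a p under 0.05, against 21.3% of all genes. The mean was higher in AMPK KO for 7 of the 8 and lower for Prf1, also under the other scalings tried, and their median log2 fold change was 0.53, where that of all genes was 0.02. The WT and AMPK KO values did not overlap for 4 of the 8 members, 3 higher (Gzmb, Klrk1 and Klrg1) and 1 lower (Prf1), against 25.6% of all genes. Of these 4, Gzmb had a mean under 1 in WT and Prf1 in AMPK KO, so each passed the filter only through the group in which it was high, and the counts over the 8 are given as a description. Gzmk and Ncr1 did not pass the filter and enter none of them.

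**Figure D1:**
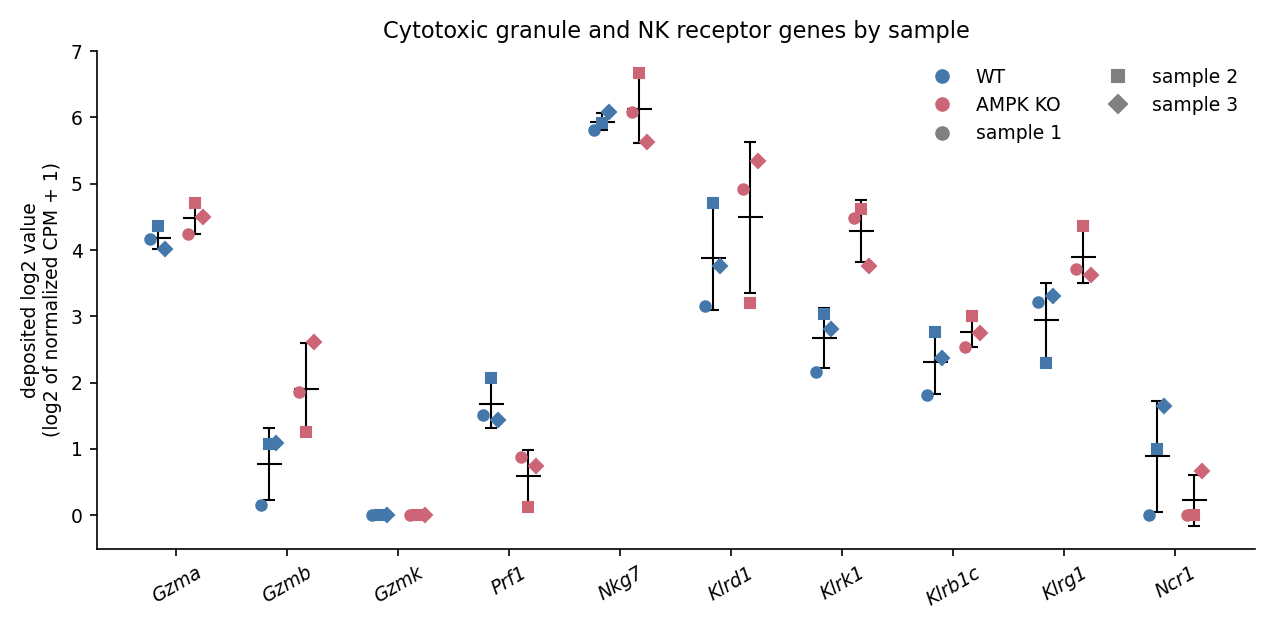
Deposited log2 values (vertical axis, log2 of normalized CPM plus 1) of the 10 members in the WT (blue) and AMPK KO (red) samples; marker shapes give the sample number and black bars the group mean ± SD of 3 samples. Klrk1 is separated between the groups at 2.16 to 3.04 against 3.76 to 4.62, Klrd1 spreads widely within both, and Gzmk is at 0 throughout.

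The granzymes differed widely in level. Gzma encodes granzyme A, a tryptase, and lies on chromosome 13 (chr13:113093825-113100981, minus strand, GRCm38). Its log2 values were 4.17, 4.36 and 4.01 in WT and 4.24, 4.71 and 4.50 in AMPK KO, from 134 to 195 and 212 to 271 reads. The groups overlapped, and the difference of 0.30 (SE 0.25, 95% interval −0.22 to 0.83, adjusted p = 0.514, limma) was not past the threshold.

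Gzmb encodes granzyme B, the protease that cleaves after aspartate and activates caspases in the target (chr14:56258838-56262260, minus strand). Its log2 values were 0.15, 1.07 and 1.09 in WT and 1.85, 1.26 and 2.62 in AMPK KO, made from 1, 11 and 10 reads and from 31, 15 and 61 reads. All 3 AMPK KO samples were above all 3 WT samples. The difference was 1.14 (SE 0.49, 95% interval 0.10 to 2.18), with an unadjusted p of 0.034 in limma, an adjusted p of 0.193 and an exact two-sided permutation p of 0.1, the smallest that 3 against 3 samples allow. At so few reads the added 1 compresses the scale, and the log2 difference was 1.75 with 0.25 added instead and 2.18 in voom on the recovered reads, with neither past the adjusted threshold. With 1 sample left out it lay between 0.79 (AMPK KO sample 3 left out) and 1.46 (AMPK KO sample 2 left out).

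Gzmk encodes granzyme K, a tryptase of memory T cells, and was listed at 0 in all 6 libraries. Vamp7, a vesicle fusion protein used in most cells, was listed at 0 in all 6 as well, so the 0 of Gzmk is given as listed and no limit is drawn from it.

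Prf1, which encodes perforin, had the opposite order of groups to Gzma and Gzmb (chr10:61297833-61304680, plus strand). Its log2 values were 1.51, 2.07 and 1.43 in WT and 0.88, 0.13 and 0.74 in AMPK KO, made from 17, 32 and 15 reads and from 10, 1 and 8 reads. Every AMPK KO value lay under every WT value. The difference was −1.09 (SE 0.45, 95% interval −2.05 to −0.12), with an unadjusted p of 0.0304 in limma and an adjusted p of 0.181, so it did not pass the threshold, and the exact permutation p was 0.1. It was −1.78 with 0.25 added and −2.29 in voom. Without WT sample 2 the mean of Prf1 fell under the filter and the gene was not tested.

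Nkg7, which encodes a granule membrane protein needed for granule release, was the most abundant member (chr7:43437073-43438249, plus strand). It had log2 values of 5.82, 5.91 and 6.08 in WT and 6.09, 6.67 and 5.64 in AMPK KO, with 510 to 1079 reads. AMPK KO sample 3 was the lowest of the 6 and AMPK KO sample 2 the highest. The difference of 0.19 (SE 0.23, 95% interval −0.29 to 0.67, adjusted p = 0.668) was within the spread, and without AMPK KO sample 2 it was −0.07.

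Among the receptors of the 10 members Klrk1 showed the clearest difference (chr6:129610323-129623864, minus strand). NKG2D recognizes stress-induced ligands of the RAE-1, H60 and MULT1 families and pairs with the adaptors DAP10 (gene Hcst) and DAP12 (gene Tyrobp). The log2 values of Klrk1 were 2.16, 3.04 and 2.81 in WT, from 32, 72 and 53 reads, and 4.49, 4.62 and 3.76 in AMPK KO, from 254, 253 and 149 reads. All AMPK KO samples lay above all WT samples, the lowest of them by less than 1 on the log2 scale. The mean was 2.67 ± 0.45 (SD, n = 3) in WT and 4.29 ± 0.46 in AMPK KO, a log2 difference of 1.62 (SE 0.35, 95% interval 0.88 to 2.36), or 3.07-fold on the scale of the deposited values, with an adjusted p of 0.0143 in limma. The adjusted p passed the threshold in 10 of 15 alternative settings and ranged from 0.0016 to 0.0945 over them. Leaving out WT sample 1 gave 0.0882, leaving out WT sample 3 gave 0.0611 and leaving out AMPK KO sample 1 gave 0.0945, and the log2 difference stayed between 1.37 and 1.88 when any 1 sample was left out.

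The other receptors were tested in the same fit. Klrd1 encodes CD94, the chain with which NKG2A, NKG2C and NKG2E form pairs on the cell surface (chr6:129591782-129598775, plus strand). It was the most variable member, with log2 values of 3.16, 4.71 and 3.76 in WT and 4.92, 3.20 and 5.35 in AMPK KO, from 73, 252 and 111 reads and from 348, 88 and 473 reads. WT sample 2 came near AMPK KO sample 1, and AMPK KO sample 2 near WT sample 1, so the groups overlapped. Its SD within groups was 0.977, against a median of 0.318 over all genes tested, and exceeded that of 99.2% of the 1954 genes within 0.5 log2 of its level. The difference was 0.62 (SE 0.48, 95% interval −0.41 to 1.64, adjusted p = 0.494). Single libraries moved it in both directions. Leaving out WT sample 1 gave 0.26 and leaving out WT sample 2 gave 1.03. Among the AMPK KO samples, leaving out sample 1 gave 0.40, sample 2 gave 1.26 and sample 3 gave 0.19, and of these values only the 1.26 was past the threshold (adjusted p = 0.0286).

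Klrb1c encodes NKRP1C, the NK1.1 antigen of C57BL/6 mice and an activating receptor (chr6:128778485-128789215, minus strand, overlapping the annotated gene Gm44511 on the same strand, which may share reads). Its log2 values of 1.81, 2.77 and 2.37 in WT and 2.54, 2.997 and 2.75 in AMPK KO came from 23 to 58 and 57 to 75 reads. The ranges overlapped, and the difference of 0.45 (SE 0.38, 95% interval −0.37 to 1.26, adjusted p = 0.540) did not pass the threshold. It was 0.19 without WT sample 1 and 0.67 without WT sample 2, the extremes when 1 sample was left out.

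Klrg1 encodes an inhibitory receptor for cadherins and marks effector T cells (chr6:122270596-122282882, minus strand). It had log2 values of 3.21, 2.29 and 3.31 in WT and 3.72, 4.36 and 3.63 in AMPK KO, from 76, 39 and 79 reads and from 144, 209 and 135 reads. No AMPK KO value was as low as a WT value, with 3.31 and 3.63 the closest. The difference was 0.96 (SE 0.36, 95% interval 0.20 to 1.72), with an unadjusted p of 0.0165 and an adjusted p of 0.131 in limma and an exact permutation p of 0.1. WT sample 2 was the lowest of the 6, and without it the difference was 0.64 (adjusted p = 0.285), the smallest of 6 such values, of which the highest was 1.15.

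Ncr1 encodes NKp46, an activating receptor largely restricted to NK and other innate lymphoid cells (chr7:4337724-4345164, plus strand). It was counted with 0, 10 and 19 reads in WT and 0, 0 and 7 reads in AMPK KO, log2 values of 0, 1.00 and 1.65 against 0, 0 and 0.67. The groups overlapped (exact two-sided permutation p = 0.4, where 3 against 3 samples cannot go below 0.1), and counts this low were not tested in limma.

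**Figure D2:**
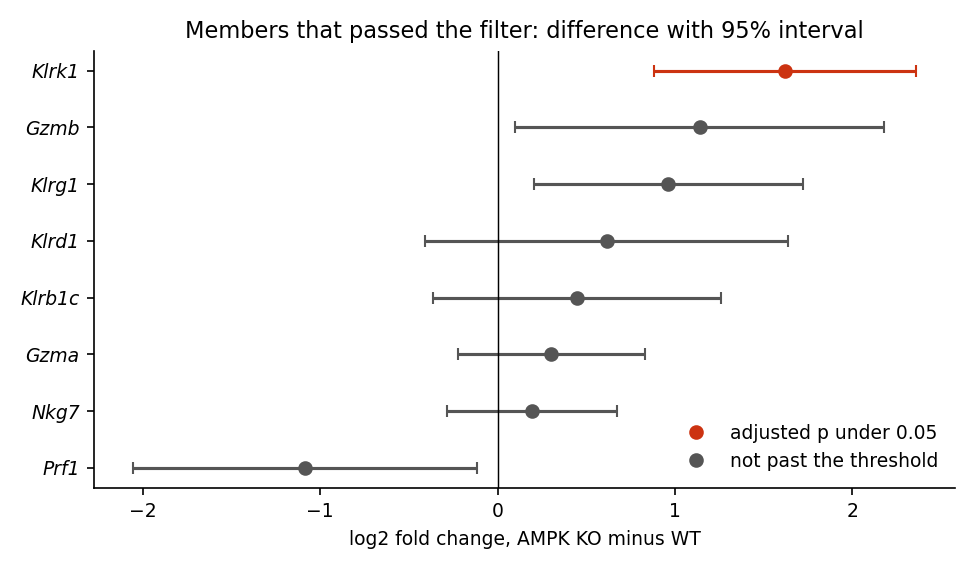
Log2 fold change (horizontal axis, AMPK KO minus WT) of the 8 members that passed the filter, with the 95% interval from limma over 3 and 3 samples. Klrk1 (red, 1.62) passed an adjusted p of 0.05, the intervals of Gzmb, Klrg1 and Prf1 lie to 1 side of 0 without adjustment, and the other 4 include 0.

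The library with the highest value differed between members. AMPK KO sample 2 was the highest of the 6 for 5 of the 8 tested members and the lowest for Prf1, AMPK KO sample 3 was the highest for 2 and WT sample 2 for 1. WT sample 1 was the lowest for 4. Summed over the members, the libraries held 889, 1262 and 1046 reads in WT and 1849, 1991 and 1739 in AMPK KO, or 0.0117 to 0.0156% and 0.0173 to 0.0207% of the reads outside Rn45s. In order of mean level over all 6 samples Nkg7 was followed by Gzma and Klrd1, then Klrk1, Klrg1, Klrb1c, Gzmb and Prf1. The order differed between the groups, since in WT Prf1 (1.67) was above Gzmb (0.77) and Klrg1 (2.94) above Klrk1 (2.67), whereas in AMPK KO Gzmb (1.91) was above Prf1 (0.58) and Klrk1 (4.29) above Klrg1 (3.90), and Klrd1 and Gzma were both at 4.49. Gzma and Klrd1, and Klrk1 and Klrg1, lay closer to each other than the spread between samples. Over the 6 samples only Nkg7 and Gzma exceeded the median level of all genes tested, 4.26.

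Another division of the libraries, seen in all genes after the data were examined, set WT samples 1 and 3 with AMPK KO sample 2 apart from WT sample 2 with AMPK KO samples 1 and 3. Within these 2 sets the log2 difference of Klrk1 was 2.13 and 1.09, that of Klrg1 1.09 and 1.38, that of Prf1 −1.34 and −1.26, and that of Gzmb 0.64 and 1.16. The sign within the sets was fixed for these 4, whose groups did not overlap. Klrd1 was at −0.26 and 0.43, Klrb1c at 0.91 and −0.12, Nkg7 at 0.72 and −0.05 and Gzma at 0.62 and 0.01. With the division as a term in the model, Klrk1 (adjusted p = 0.0016) and Klrg1 (0.00832) passed the threshold, but the division was read from these libraries themselves, which makes such p-values too small.

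Klrk1, Klrd1 and Klrb1c lie in the NK gene complex on chromosome 6, a cluster of lectin-like receptor genes that also holds Clec2 genes, which encode ligands of some of the receptors. Of 24 Klr genes of the cluster 15 were tested, and the mean was higher in AMPK KO for 15 of the 15, with 3 called, all higher. Klre1, Klra9, Klra13-ps, Klra3 and Klra1 (5 of the 15) had a mean under 1 in WT and passed the filter only through AMPK KO, so the count of 15 is a description and no evidence of a shared direction. Under quantile normalization or scaling to the reads outside Rn45s it was 14 of 15, with Klra7 lower. The Clec2 genes tested, which lie between Klrb1b and Klre1, had lower means in AMPK KO. Clec2i was called lower at −0.93 (adjusted p = 0.0339), and Clec2d, at −0.96 (adjusted p = 0.0574), did not pass the threshold. Besides Klrk1 the Klr genes called were Klrc1 and Klra13-ps. Klrc1 encodes NKG2A, the inhibitory partner of CD94, and lies 42.2 kb from Klrk1 with Klrc2 and Klrc3 between them. It had log2 values of 4.80, 4.17 and 4.29 in WT and 5.80, 6.32 and 5.96 in AMPK KO, from 164 to 247 and 648 to 847 reads, with no overlap. The difference of 1.61 (SE 0.23, adjusted p = 0.000956) passed the threshold in each of 15 alternatives. Klra13-ps, a pseudogene of the Ly49 family, differed by 2.38 (SE 0.46, adjusted p = 0.00843) at 5 to 182 reads. Klra and Klrc genes have near-identical copies in the cluster, so the assignment of reads among them is uncertain. Klrb1b, an inhibitory relative of Klrb1c and the second most abundant of the other receptors, differed by 0.31 (adjusted p = 0.725).

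**Figure D3:**
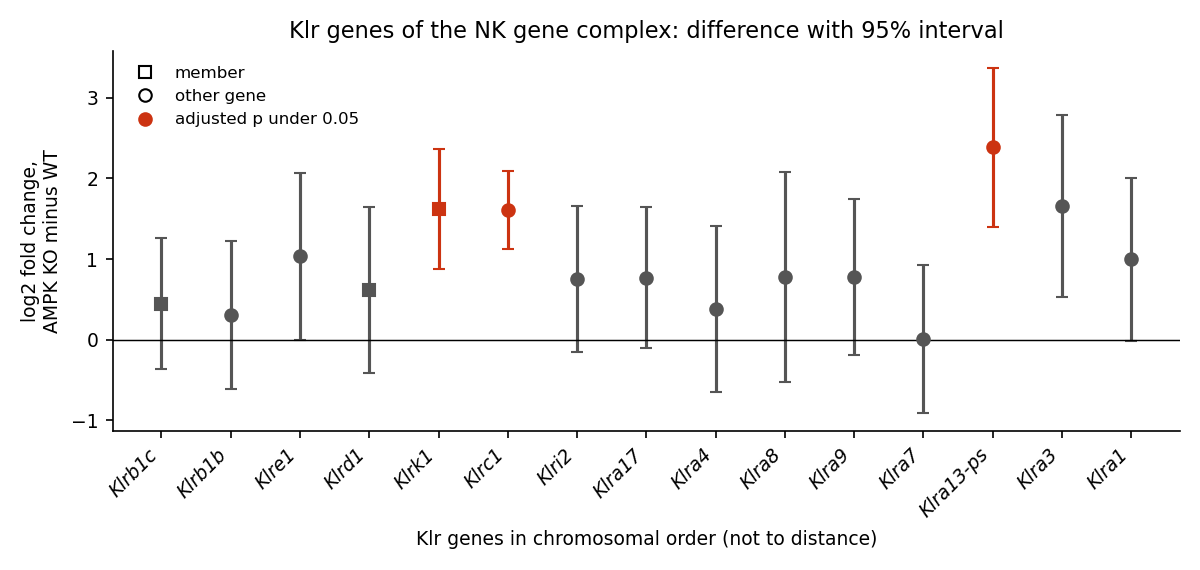
Log2 fold change (vertical axis, AMPK KO minus WT, with 95% interval from limma) of the 15 tested Klr genes of the NK gene complex in chromosomal order (its Clec2 genes are not drawn), with members as squares and genes past an adjusted p of 0.05 in red. All 15 means are above 0, from 0.01 for Klra7 (below 0 under quantile normalization or scaling outside Rn45s) to 2.38 for Klra13-ps, and most intervals include 0.

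Genes that work with the members were examined in 8 lists, which were chosen with earlier results of these data known. In them 16 of 78 tested genes were called, 13 higher and 3 lower, a count given as a description. Of all genes 5.65% were called. Of the 78, 7 passed the filter only through the group in which they were high, and Klra13-ps among them is 1 of the 13. Of the 16, Gzmm, Stx11, Ccl5, Ccl4, Klrc1 and Tcf7 (6 genes) passed the threshold with any 1 library left out. Each of the other 10 (Srgn, Lyst, Ccl3, Ifng, Klra13-ps, Fcer1g, Tyrobp, Clec2i, Stat4 and Il2rb) kept its direction but lost the call when WT sample 1 was left out, at adjusted p-values of 0.0535 to 0.114, 7 of them also when WT sample 3 was left out (0.0556 to 0.163) and 7 when AMPK KO sample 1 was left out (0.0513 to 0.0931). Clec2i alone lost it without WT sample 2 (0.0689).

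Of the 7 other granzymes 5 were listed at 0 in all 6 libraries and only Gzmm passed the filter. Gzmm, which encodes the methionine-cleaving granzyme M, rose from log2 values of 1.76, 1.32 and 0.29 in WT to 3.67, 4.52 and 4.11 in AMPK KO, from 2 to 22 and 139 to 236 reads. The difference was 2.97 (SE 0.43, adjusted p = 0.00127). Gzmc did not pass the filter, with 1 to 25 reads.

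In the list of granule matrix, maturation and release, 2 of 15 tested genes were called higher and 1 lower, with a median log2 fold change of 0.37. Srgn, the gene of serglycin, rose by 1.04 (SE 0.21, adjusted p = 0.0125) at 5336 to 23744 reads, and Stx11, a syntaxin needed for granule fusion, by 1.47 (SE 0.21, adjusted p = 0.00127). Lyst, the lysosomal trafficking regulator mutated in beige mice, fell by 1.08 (adjusted p = 0.0103). Lamp1, a lysosome membrane protein exposed during degranulation, differed by 0.27 (adjusted p = 0.427).

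Death ligands and secreted effectors had 4 of 9 tested genes called, all higher, with a median of 1.29. These were the chemokine genes Ccl5 (log2 difference 1.73, SE 0.16, adjusted p = 2.02e-05), Ccl3 (1.50, adjusted p = 0.00633) and Ccl4 (1.29, adjusted p = 0.00282), whose products attract T cells and monocytes, and Ifng (1.70, SE 0.40, adjusted p = 0.0231). Ifng, the gene of interferon-γ, had log2 values of 2.13, 4.10 and 3.45 in WT and 4.91, 5.17 and 4.71 in AMPK KO, which did not overlap, and the annotated gene Gm49751 overlaps it on the same strand. Tnf differed by 0.60 (adjusted p = 0.0869).

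Among receptor adaptors and partner receptors 2 of 14 tested genes were called, with a median of 0.09. Tyrobp (DAP12) rose by 1.02 (SE 0.23, adjusted p = 0.0198) and Fcer1g, the FcRγ adaptor, by 1.12 (SE 0.25, adjusted p = 0.0198), both of which macrophages also express. Hcst, which encodes the other NKG2D adaptor, DAP10, differed by 0.04 (adjusted p = 0.927), and Cd247, the CD3 ζ chain, by −0.10 (adjusted p = 0.726).

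Of the transcription factors of the cytotoxic programme, 1 of 13 tested was called higher and 1 lower, with a median of 0.14. Tcf7, which encodes TCF-1 of naive and memory T cells, fell by 1.66 (SE 0.23, adjusted p = 0.000719), from 5.37, 5.27 and 5.27 to 3.79, 3.54 and 3.60. Stat4, which transmits interleukin-12 signals, rose by 0.99 (SE 0.19, adjusted p = 0.00707). Both overlap other annotated genes that may share reads. Runx3 differed by −0.39 (adjusted p = 0.125) and Id2 by 0.32 (adjusted p = 0.212). In the 8 tested cytokine receptors Il2rb, the β chain shared by the receptors for interleukins 2 and 15, was the 1 called and rose by 0.67 (SE 0.14, adjusted p = 0.0126), with a median of 0.21 over the list. Il21r differed by 0.20 (adjusted p = 0.435) and Il2rg by 0.06 (adjusted p = 0.848).

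**Figure D4:**
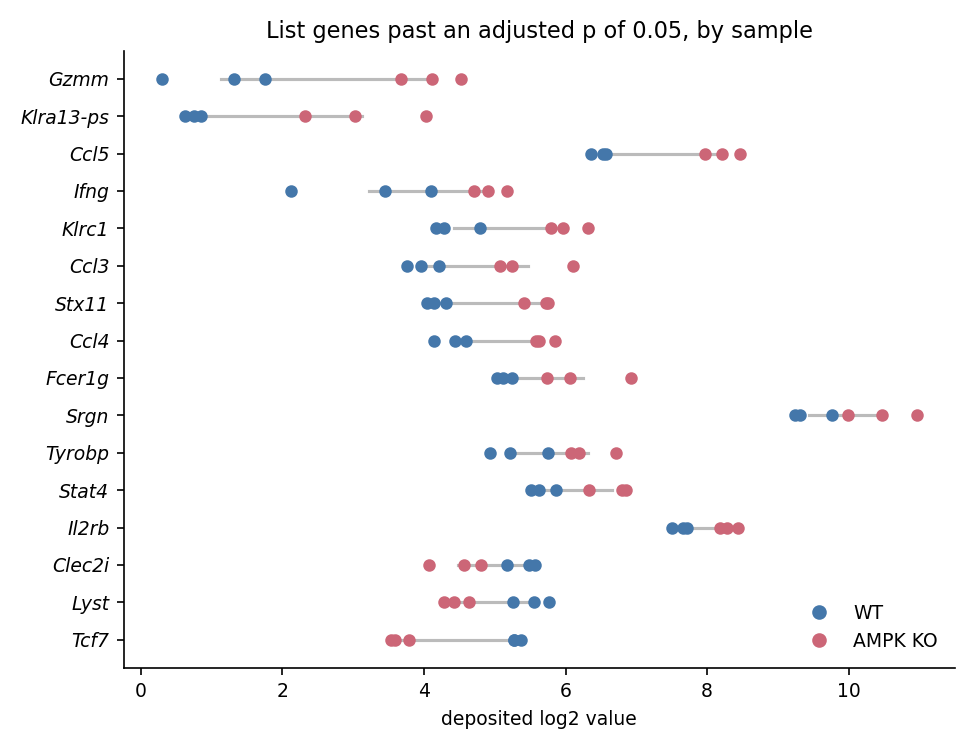
Deposited log2 values (horizontal axis) of the 16 genes of the 8 lists that passed an adjusted p of 0.05, in the 3 WT (blue) and 3 AMPK KO (red) samples, with grey lines joining the group means. From Gzmm at the top (log2 difference 2.97) to Il2rb the AMPK KO samples are higher, and for Clec2i, Lyst and Tcf7 they are lower.

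Markers of other cells that use these genes moved in part with genotype. The CD8 chains Cd8a and Cd8b1 differed by 0.34 (adjusted p = 0.217) and 0.38 (adjusted p = 0.197), with 0 of 2 called, and their summed normalized CPM were 231 to 305 in WT and 321 to 376 in AMPK KO. Of 9 NK markers, leaving out Tyrobp, Fcer1g and Eomes, which other cells also express, 8 were tested, with 8 means higher in AMPK KO (3 of them, Klra3, Klra9 and Klre1, passed the filter only through that group) and 0 called, and their sum was 8.03 to 15.8 against 13.8 to 32.2. Klra3, Klra9 and Klre1 are also among the 15 Klr genes counted above, so the 8 higher means are not a separate result from that count. Among those 15, Klra7 was lower under quantile normalization (−0.10) and under scaling outside Rn45s (−0.04). The direction of the 8 was not tested under those scalings. Over all 12 NK markers, which include these 9, the sum was 113 to 130 against 217 to 291, with 11 of 11 tested means higher and 2 called. The 2 called were Tyrobp and Fcer1g, with mean normalized CPM of 39.5 and 34.1 in WT and 80.5 and 79.7 in AMPK KO. Ncr1, which is in neither list, had a lower mean in AMPK KO, at 0, 10 and 19 reads in WT and 0, 0 and 7 in AMPK KO, with overlapping groups. The order of the AMPK KO samples 1, 2 and 3 depended on the list, with sums of 18.8, 13.8 and 32.2 over the 9 markers and 217, 291 and 222 over the 12.

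Macrophage and monocyte markers had a higher mean in AMPK KO for 12 of 12, with 7 called, at sums of 469 to 530 in WT and 909 to 1599 in AMPK KO. The list of CD4 T cell markers had 2 of 9 means higher and 4 called lower (Cd3e, Cd3g, Cd28 and Tcf7), at 1734 to 1958 against 1275 to 1614. These 4 are not restricted to CD4 T cells. Cd4 itself differed by −0.36 (adjusted p = 0.224, limma) with overlapping groups. In bulk samples a change in the number of cells of a type and a change in RNA per cell cannot be told apart, and the part that CD8 T cells, NK cells and macrophages play in the values of Klrk1, Klrc1 and the other genes here was not tested.

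**Figure D5:**
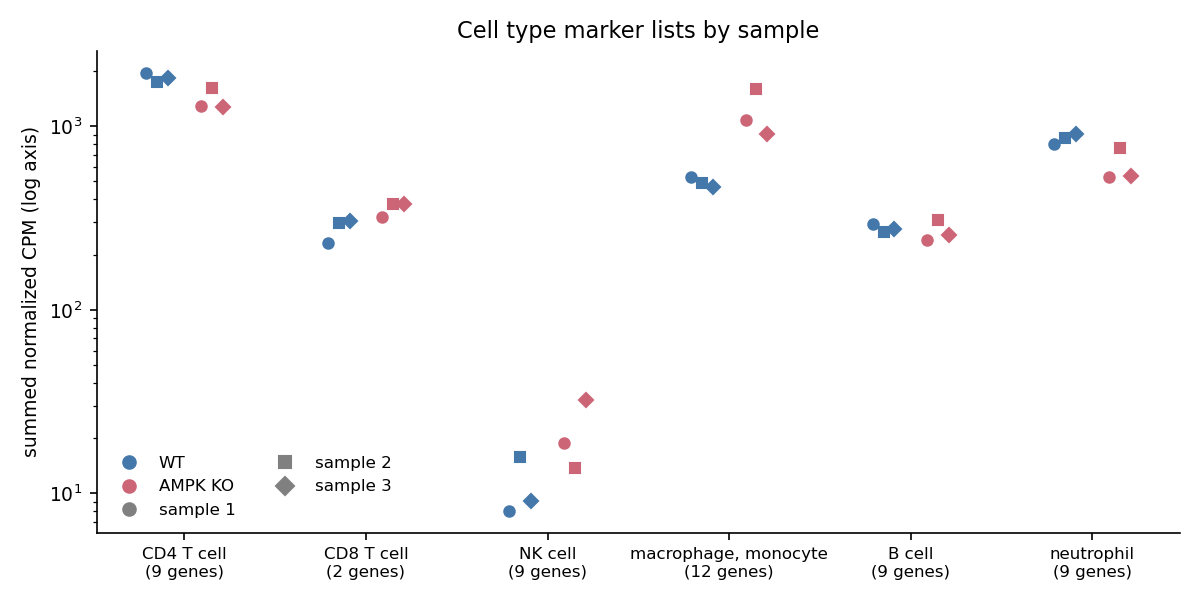
Summed normalized CPM (vertical log axis) of marker genes of 6 cell types in each WT (blue) and AMPK KO (red) sample, with marker shapes for the sample number and the NK list without Tyrobp, Fcer1g and Eomes. CD8 T cell sums are 231 to 305 against 321 to 376, and macrophage and monocyte sums 469 to 530 against 909 to 1599.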

How the data were processed

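Stimulated CD4 T cells of both genotypes were profiled from 500 ng of RNA with QuantSeq 3′ libraries. The authors deposited log2 values of reads normalized by TMM and CPM plus 1, 1 file per sample; the submitters' processing notes name Bowtie2, bedtools and mm10, and the annotation and the use of strand are not given in the sources used here. Of the symbols 35 occur on more than 1 line (79 lines). Up to 100 reads, 100% of values lay within 0.1 of a whole read, which gave the reads quoted. Larger counts and totals were rounded from the 3-decimal log2 values and are approximate.

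Genes with a mean of at least 1 were tested with limma 3.58.1 (lmFit, eBayes with a trend) in R 4.3.3 on the deposited values, with genotype as the only term, Benjamini-Hochberg adjustment over 11279 genes and a threshold of 0.05. Single genes also had an exact two-sided permutation test. The code was tested on simulated data. The named genes were all members, in each list the called genes (at most 4 with the lowest p) and the 2 of highest mean, and Prkaa1. Members and lists were chosen with earlier results of these data known. Gene coordinates are from GENCODE M21. Alternatives were quantile normalization, scaling outside Rn45s, other filters, a pseudocount of 0.25, a robust spread, voom, a replicate block, leaving out each sample and, added after seeing the data, the library division.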

Additional observations from a re-analysis of the deposited data

How the results depend on the processing

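The number of members past the threshold, 1 as reported, was 0 without a filter on low values (every gene with any read), 0 with the replicate block, 2 with the library division as a term and 0 to 2 when 1 sample was left out; it was 0 without WT sample 1, WT sample 3 or AMPK KO sample 1, and 2 (Klrd1 and Klrk1) without AMPK KO sample 2. Over all genes the 637 calls became 308 without a filter, 102 with the replicate block, 1428 with the division and 127 to 1243 with 1 sample left out, and the 16 calls in the related lists became 8 with the block, 30 with the division and 6 to 21 with 1 sample left out. The same-numbered samples did not deviate together (correlations of −0.175, −0.477 and −0.267 over 7957 genes), so the numbers are not taken as pairs. Klrk1 had an adjusted p of 0.062 without a filter and 0.0795 with the block. Scaling to the reads outside Rn45s moved the share of higher calls from 45.05% to 32.55%.

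The sign turned for Nkg7 without AMPK KO sample 2 (−0.0738, in a range up to 0.4402 over the samples left out), for Hcst under the scaling outside Rn45s (−0.0316) and without WT sample 2 (−0.0672) or AMPK KO sample 2 (−0.093, in a range up to 0.1453), and for Il2rg under that scaling (−0.0143); none of these passed the threshold, and the cause was not tested. Of the 116 values of the 8 members under these alternatives, 108 kept their direction and side of the threshold. Counts of 1 to 61 reads limit Gzmb and Prf1, and Ncr1 was too low to test.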

Other observations

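Of 14 matched genes for ligands of the NK receptors 5 passed the filter, 4 of these had a lower mean in AMPK KO and 1 was called. H2-T23, 1 of the 5, passed only through WT. Clec2i, which encodes a ligand of NKRP1 receptors, fell by 0.93 (SE 0.24, adjusted p = 0.0339, limma; up to 0.163 with 1 library left out), and its relative Clec2d differed by −0.96 (adjusted p = 0.0574). The Raet1a, Raet1c, Raet1d and Raet1e genes of NKG2D ligands were listed at 0 in all 6 libraries, and their near-identical copies make such a listing uncertain. Clec2i overlaps BC035044 on the opposite strand.

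Markers of the remaining cell types were summed in the same way. Plasma cell markers summed to 214 to 278 normalized CPM in WT and 566 to 574 in AMPK KO, with 1 of 7 tested genes called (Jchain). The sum is not specific to plasma cells. It includes Prdm1 and Irf4, also listed above as transcription factors of the cytotoxic programme, and Xbp1, which the study reports as raised in AMPK-deficient CD4 T cells. Derl3 passed the filter only through AMPK KO. Neutrophil markers were at 796 to 909 against 526 to 765, with 2 of 9 called, both lower, and plasmacytoid dendritic cell markers at 173 to 218 against 115 to 157, with 2 of 6 called, 1 in each direction. B cell, regulatory T cell, NKT and innate-like T cell, γδ T cell and mast cell and basophil lists had 0 genes called in limma.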
